A study of Mus musculus and Homo sapiens with 14 samples.

Results

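The genes described here are 32 genes of sterol and fatty acid synthesis, taken by symbol from every deposited table of acute myeloid leukemia cells. All 32 were among the 20682 rows of each mouse table. In the MOLM-13 table of 19166 rows, 31 were found, 29 of them under the upper-case symbol and the other two, Cyp51 and Scd1, as CYP51A1 and SCD. They comprised 17 enzymes of the cholesterol branch, 1 sterol carrier (Stard4), 5 genes of the SREBP regulators and 9 genes of the fatty acid branch (8 in MOLM-13, where no row was assigned to Scd2).

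Cells make cholesterol from acetyl-CoA through mevalonate, farnesyl diphosphate, squalene and lanosterol, and make fatty acids from the same acetyl-CoA through malonyl-CoA. Srebf1 and Srebf2 encode the SREBP transcription factors, membrane proteins that Scap escorts out of the endoplasmic reticulum when sterol is scarce and that Insig1 and Insig2 hold back when it is plentiful. Released SREBP binds sterol regulatory elements, often beside NF-Y and Sp1 sites, and raises transcription of most enzymes of both branches and of Insig1 itself. Dividing leukemia cells use both products for their membranes.

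RN2c is a mouse leukemia line that expresses Cas9, and its cells were collected on day 2 after infection with a lentivirus carrying a guide RNA against Sik3 (sgSik3, guides e1 and e3), against Mef2c (sgMef2c, guides 1 and 2) or against the Rosa26 locus (sgRosa26), which serves as a cutting control. Mouse RN2 cells, which have no Cas9 in their label and carry the word empty in their titles without an explanation, received 350 nM YKL-05-099, which inhibits salt-inducible kinases, or 0.1% DMSO for 2 hours. Human MOLM-13 cells harboring an empty vector received 250 nM YKL-05-099 or 0.1% DMSO for 2 hours. Each of the 7 groups had 2 libraries of polyA RNA, all from cells grown in RPMI with serum, and the share of edited cells is not given in the sources used here.

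Values are read counts normalised by the authors with a size factor per library, written below as normalised read counts. Reads per library were 19065348 to 24275290 in RN2c, 13961461 to 14943682 in RN2 and 16859820 to 22609627 in MOLM-13. The targeted genes followed their labels. Sik3 had 1219 and 1169 normalised read counts in sgSik3 cells, against 1939 and 1878 in sgRosa26 cells, and Mef2c had 3892 and 4021 in sgMef2c cells, against 8395 and 8369 in sgRosa26 cells. All 8 leukemia identity markers, Ptprc and Spi1 among them, passed the expression filter in each table, while Hba-a1, Hbb-bs, Hbb-bt, Cd3e and Ms4a1 were at 0 in every mouse library. Of 8 lymphocyte markers, only Nkg7 passed the filter in the sgSik3 and sgMef2c tables, and it was called higher in both. Of 7 erythroid markers, 1 passed in the sgSik3 table and 2 in the sgMef2c table. Of 11 fibroblast, endothelial and epithelial markers, 3 passed in each mouse table. The 2 libraries of sgSik3 cells carry different guides, as do those of sgMef2c cells, so their spread includes that between guides. For the other groups the labels do not say whether the libraries came from separate cultures, and their spread could be technical. The p-values reflect only the spread between these libraries.

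Within the control libraries, the 3 most abundant of the 32 genes per kilobase of exon were Scd2, a stearoyl-CoA desaturase, Acly, which makes cytosolic acetyl-CoA from citrate, and Fasn, the fatty acid synthase. In sgRosa26 cells the mean level was 2726 normalised reads per kilobase for Scd2, 2183 for Acly and 1738 for Fasn. Among cholesterol enzymes the level was highest for Fdps, the farnesyl diphosphate synthase, at 1254 normalised reads per kilobase, and lowest for the sterol reductase gene Tm7sf2, at 77.2. Of the regulators, Srebf2 stood at 822, Insig1 at 680, Srebf1 at 476, Scap at 244 and Insig2 at 99.6 normalised reads per kilobase. Acss2, which makes acetyl-CoA from acetate, was low at 5.89. Scd1 did not pass the filter in RN2c, with 0.973 and 2.18 normalised read counts in sgSik3 cells, against 1.88 and 0 in sgRosa26 cells, so 31 members were tested there. On GRCm38, with the GENCODE gene models, Sqle lies at chr15:59315077-59331192 (plus strand), Cyp51 at chr5:4081145-4104746 (minus strand), Insig1 at chr5:28071363-28078662 (plus strand) and Fasn at chr11:120805846-120824547 (minus strand). Scd1 and Scd2 are close paralogs, and reads that fit both could be counted for either.

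**Figure D1:**
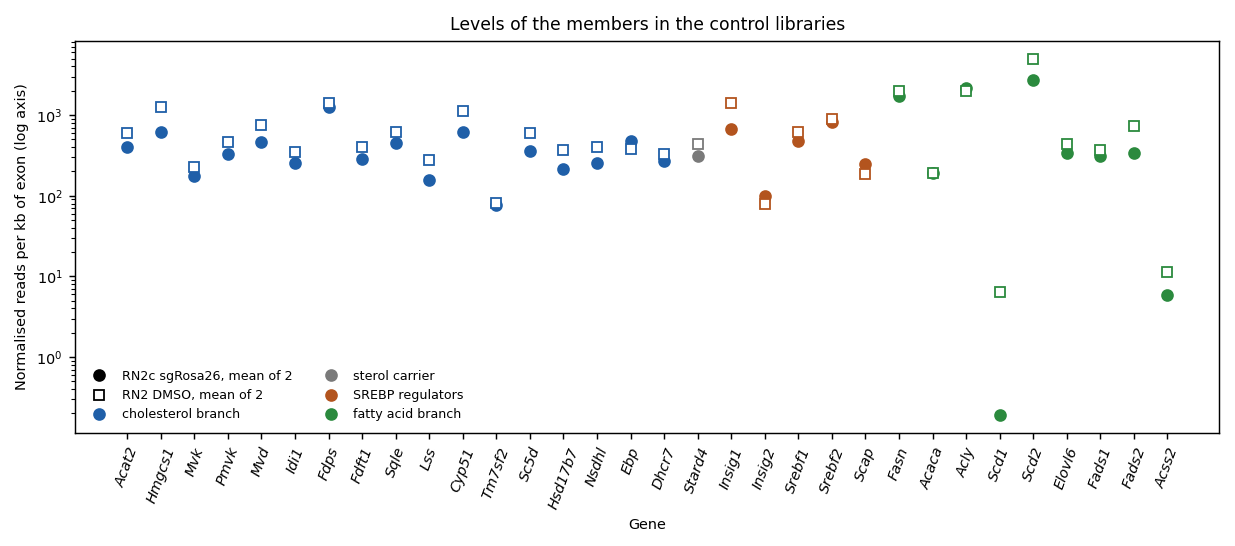
Mean normalised reads per kilobase of exon (log axis) of each gene in RN2c sgRosa26 libraries (filled circles) and RN2 DMSO libraries (open squares), 2 libraries each, from tables normalised separately. Scd2, Acly and Fasn lie at the top of the plot, and Scd1 and Acss2 at the bottom.

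In 5 of the 7 groups the libraries differed in 1 direction for at least 24 of the 31 tested members, and each comparison was therefore also made without each library. In sgRosa26 cells, 29 of the 31 tested members were higher in replicate 1 than in replicate 2, with a median difference of 0.20 on the log2 scale, while 49.4% of all 10934 genes tested were. The difference was 0.24 for the median cholesterol gene (16 of 17 higher) and 0.29 for the median fatty acid gene (8 of 8 higher). It reached 0.96 for Fads2, the first desaturase of polyunsaturated fatty acids, at 1480 and 759 normalised read counts in replicates 1 and 2. Between the sgSik3 guides, 24 of 31 members were lower with e1 than with e3 (median −0.11), and between the sgMef2c guides 25 of 31 were higher with guide 1 than with guide 2 (median 0.07). In MOLM-13, replicate 1 lay below replicate 2 for 25 of 31 members under YKL-05-099 (median −0.23) and for 26 of 31 under DMSO (median −0.27). RN2 libraries lay closest, with medians of −0.01 under YKL-05-099 and −0.03 under DMSO.

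**Figure D2:**
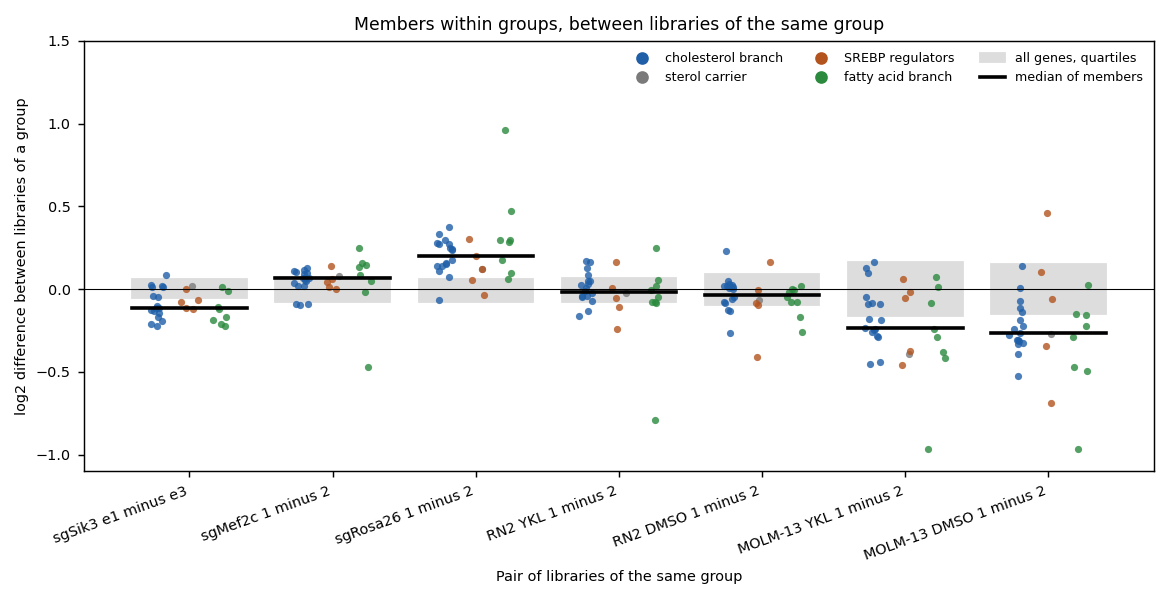
Log2 difference between the libraries of the same group, with 1 point per member, the median of the members as a black line and the quartiles of all genes as a grey box. The members lie above 0 in the sgRosa26 pair, below 0 in both MOLM-13 pairs and around 0 in both RN2 pairs.

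The sgSik3 comparison asked which transcripts depend on Sik3. Enzymes of both branches were lower in sgSik3 cells than in sgRosa26 cells, down to 70.2% of the control mean for Cyp51, while Srebf1 and Srebf2, which encode the SREBP factors, did not pass the test. Of the 31 members tested, 13 were called lower and 2 higher (limma, Benjamini-Hochberg adjusted p under 0.05). Over all 10934 genes tested, 23.9% were called lower and 23.9% higher. The median log2 fold change was −0.25 in the cholesterol branch, −0.22 in the fatty acid branch and −0.04 among the regulators, against 0.00 over all genes tested, whose quartiles were −0.18 and 0.19. Without sgRosa26 replicate 1, 12 members were called lower and 6 higher, and the medians were −0.08 in the cholesterol branch and −0.04 in the fatty acid branch. Without sgRosa26 replicate 2, 22 were called lower and 1 higher, with medians of −0.33 and −0.40 in the same branches. Without guide e1, 5 were called lower and 1 higher, with medians of −0.17 and −0.12, and without guide e3, 9 were called lower and 0 higher. In a fit with no mean-variance trend 3 were called lower, Sqle, Cyp51 and Fasn. The groups stood apart, with no overlap of libraries, for 15 members on the lower side and 4 on the higher side, against 37.8% and 37.4% of all genes tested. DESeq2 on recovered reads called 9 members lower and 0 higher, and 32.3% of all genes in either direction, while edgeR on the same reads called 13 and 2, and 47.8% of all genes. In bulk RNA, fewer cells of a type and less RNA per cell cannot be told apart.

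In the cholesterol branch, 8 of 17 members fell and none of the other 9 passed the test. Squalene epoxidase, Sqle, had 1748 and 1726 normalised read counts in sgSik3 cells, against 2600 and 2332 in sgRosa26 cells (log2 fold change −0.50, SE 0.05, adjusted p = 7.5e-05). Cyp51, the lanosterol demethylase, had 1859 and 2011 in sgSik3 cells, against 3015 and 2498 in sgRosa26 cells (−0.50, SE 0.08, adjusted p = 0.00074). Both genes lay lower in both sgSik3 libraries than in either control library, with means of 70.5% and 70.2% of the sgRosa26 mean. Hmgcs1, which encodes the cytosolic HMG-CoA synthase, had 2200 and 2261 normalised read counts in sgSik3 cells, against 3110 and 2530 in sgRosa26 cells (−0.33, SE 0.08, adjusted p = 0.0079). Fdps had 4272 and 4414 in sgSik3 cells, against 5712 and 4844 in sgRosa26 cells (−0.28, SE 0.07, adjusted p = 0.0074). Fdft1, squalene synthase, had 1022 and 1013 in sgSik3 cells, against 1277 and 1148 in sgRosa26 cells (−0.25, SE 0.06, adjusted p = 0.0071). For these genes too the groups did not overlap, and the control libraries differed from each other more than the guides did. Sqle and Cyp51 stayed called whichever library was left out. Without sgRosa26 replicate 1, the log2 fold change was −0.18 for Hmgcs1 and −0.16 for Fdps, and without guide e1 both missed the threshold (adjusted p = 0.061 and 0.063), as Fdft1 did without guide e3 (adjusted p = 0.053) and Hmgcs1 with DESeq2 (adjusted p = 0.064). The labels' library protocol describes no strand marking. A gene model on the same strand, Gm43738, shares 26.7% of the exon length of Fdps, and models on the opposite strand share 18.3% of the exon length of Fdft1 (with Ctsb) and 12.1% of that of Hmgcs1 (with Gm48342), so reads there could belong to either gene.

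The other 3 called cholesterol genes showed the same order of groups. Acat2, the cytosolic thiolase at the start of the pathway, had 758 and 827 normalised read counts in sgSik3 cells, against 1144 and 881 in sgRosa26 cells (−0.34, SE 0.11, adjusted p = 0.027). Mvd, the mevalonate diphosphate decarboxylase, had 735 and 720 in sgSik3 cells, against 944 and 795 in sgRosa26 cells (−0.25, SE 0.08, adjusted p = 0.028). Lss, the lanosterol synthase, had 1272 and 1474 in sgSik3 cells, against 1815 and 1533 in sgRosa26 cells (−0.28, SE 0.09, adjusted p = 0.024). The members not called ranged from −0.25 for Idi1, the isopentenyl diphosphate isomerase (adjusted p = 0.090), to 0.25 for Pmvk, phosphomevalonate kinase (adjusted p = 0.054). Pmvk had 639 and 693 normalised read counts in sgSik3 cells, against 617 and 511 in sgRosa26 cells, so its groups stood apart in the opposite direction. Mvk, mevalonate kinase, had 420 and 416 in sgSik3 cells, against 498 and 441 in sgRosa26 cells (−0.16, SE 0.08, adjusted p = 0.13), lower in both sgSik3 libraries without passing the test. The late steps from lanosterol to cholesterol other than Cyp51, namely Tm7sf2, Sc5d, Hsd17b7, Nsdhl, Ebp and Dhcr7, lay between −0.15 and 0.07, with overlapping groups in each, and none passed the test. Stard4, a cytosolic sterol carrier, had 1855 and 1827 normalised read counts in sgSik3 cells, against 1822 and 1674 in sgRosa26 cells (0.08, SE 0.05, adjusted p = 0.23). Without sgRosa26 replicate 1, Acat2 stood at −0.15 (adjusted p = 0.070), Mvd at −0.13 (adjusted p = 0.15) and Lss, still called, at −0.16. Without sgRosa26 replicate 2, Acat2 stood at −0.53. Without guide e1 all 3 calls were lost (adjusted p = 0.17, 0.10 and 0.20, with Lss at −0.18), and without guide e3 those of Acat2 and Mvd were (adjusted p = 0.060 and 0.13). DESeq2 did not call Mvd (adjusted p = 0.066).

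**Figure D3:**
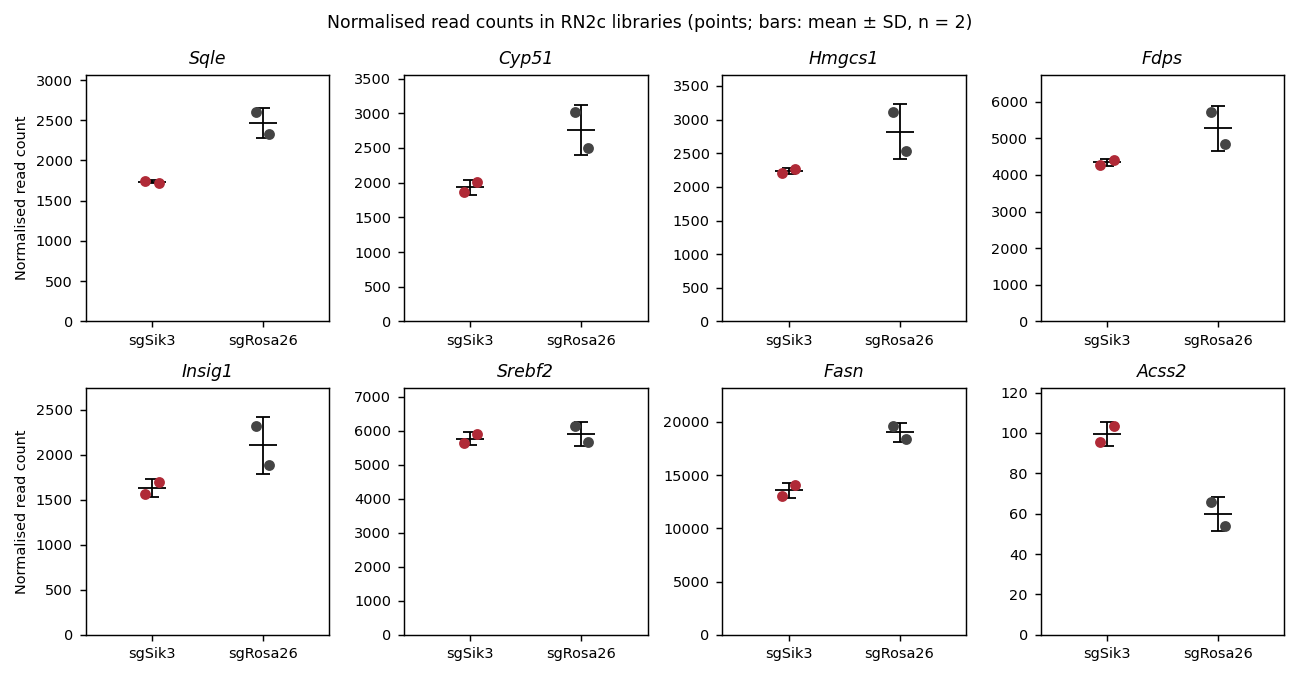
Normalised read counts of 8 members in the RN2c libraries of the sgSik3 table, with points for libraries and bars for mean ± SD (n = 2 per group). Sqle, Cyp51, Hmgcs1, Fdps, Insig1 and Fasn lie lower in sgSik3 libraries than in both sgRosa26 libraries, Srebf2 overlaps, and Acss2 lies higher.

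Promoter windows of 7 members that fell in sgSik3 cells are shown because SREBP is known to act at such promoters. They are the called cholesterol genes and Insig1 with a window in the table, other than Mvd, whose window is not printed, then the 2 fatty acid genes of lowest p. Each window runs from 250 bases before to 50 bases after a gene start and comes from RefSeq on GRCm38.p6, written 5′ to 3′ on the strand of the gene. Capitals mark matches to the sterol regulatory element motif TCACNCCAC or to the NF-Y motif CCAAT, on either strand, so that CCAAT on the opposite strand reads ATTGG. Cyp51 lies at chr5:4104648-4104947 (minus strand), Hmgcs1 at chr13:119690101-119690400 (plus strand), Acat2 at chr17:12960676-12960975 (minus strand), Lss at chr10:76531355-76531654 (plus strand), Insig1 at chr5:28071162-28071461 (plus strand), Fasn at chr11:120824498-120824797 (minus strand) and Acaca at chr11:84195188-84195487 (plus strand).
Cyp51: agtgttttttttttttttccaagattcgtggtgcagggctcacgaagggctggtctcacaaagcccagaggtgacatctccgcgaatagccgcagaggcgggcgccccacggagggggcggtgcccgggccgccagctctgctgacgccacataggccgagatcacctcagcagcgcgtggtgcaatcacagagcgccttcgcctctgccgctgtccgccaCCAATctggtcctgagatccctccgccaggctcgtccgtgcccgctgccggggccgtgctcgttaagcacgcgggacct
Hmgcs1: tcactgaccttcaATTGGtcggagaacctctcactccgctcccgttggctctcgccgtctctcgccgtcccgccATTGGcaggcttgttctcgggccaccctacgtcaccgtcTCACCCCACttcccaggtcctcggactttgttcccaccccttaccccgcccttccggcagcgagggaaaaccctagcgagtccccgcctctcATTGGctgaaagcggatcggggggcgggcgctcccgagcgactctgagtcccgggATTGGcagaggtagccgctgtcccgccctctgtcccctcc
Lss: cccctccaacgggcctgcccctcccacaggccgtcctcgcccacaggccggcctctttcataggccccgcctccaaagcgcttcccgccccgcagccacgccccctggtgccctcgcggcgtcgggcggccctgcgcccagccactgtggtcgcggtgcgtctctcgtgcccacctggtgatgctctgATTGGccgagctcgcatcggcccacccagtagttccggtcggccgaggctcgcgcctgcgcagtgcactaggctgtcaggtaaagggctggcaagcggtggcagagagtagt
Acat2: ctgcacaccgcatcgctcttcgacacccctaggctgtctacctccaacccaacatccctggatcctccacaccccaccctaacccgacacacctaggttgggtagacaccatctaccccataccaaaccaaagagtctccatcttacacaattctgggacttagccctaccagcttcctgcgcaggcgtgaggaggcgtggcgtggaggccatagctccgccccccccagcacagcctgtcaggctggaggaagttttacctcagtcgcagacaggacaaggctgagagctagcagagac
Insig1: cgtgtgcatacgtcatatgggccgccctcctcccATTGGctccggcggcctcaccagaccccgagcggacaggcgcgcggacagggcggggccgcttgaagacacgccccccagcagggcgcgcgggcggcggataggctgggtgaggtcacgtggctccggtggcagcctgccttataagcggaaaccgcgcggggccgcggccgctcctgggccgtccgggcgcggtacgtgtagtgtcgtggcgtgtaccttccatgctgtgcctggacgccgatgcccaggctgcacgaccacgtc
Fasn: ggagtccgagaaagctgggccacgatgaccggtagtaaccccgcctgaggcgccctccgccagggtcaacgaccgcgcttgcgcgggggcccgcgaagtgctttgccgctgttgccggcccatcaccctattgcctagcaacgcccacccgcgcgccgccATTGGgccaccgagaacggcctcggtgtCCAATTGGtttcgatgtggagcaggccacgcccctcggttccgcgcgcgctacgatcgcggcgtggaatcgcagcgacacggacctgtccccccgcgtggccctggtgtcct
Acaca: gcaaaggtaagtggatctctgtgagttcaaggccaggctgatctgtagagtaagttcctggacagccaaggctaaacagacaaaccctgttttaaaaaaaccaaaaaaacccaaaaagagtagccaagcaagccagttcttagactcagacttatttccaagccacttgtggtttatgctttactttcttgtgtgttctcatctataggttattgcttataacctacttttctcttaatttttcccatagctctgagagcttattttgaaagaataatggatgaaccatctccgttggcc

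Hmgcs1 was the only member with a match to TCACNCCAC, which began 137 bases before its start, among the 33 windows of 25 members in the table. That motif was found in 1.24% of all 32851 windows. CCAAT was found in 21 of the 33 member windows, belonging to 20 of 25 genes, against 37.4% of all windows, and GGGCGG, the Sp1 motif, in 25 of the 33, belonging to 21 of 25 genes, against 35.7% of all windows. The windows of Acat2 and Acaca held neither CCAAT nor the sterol motif, nor did that of Elovl6, and all 3 genes fell in sgSik3 cells. The Acaca window lies within its GENCODE gene model (chr11:84129672-84401651, plus strand), away from the 5′ start of that model. Motifs at that 5′ start were not examined. In Fasn a CCAAT and an ATTGG share bases. Hmgcs1 and Fasn both fell in sgSik3 cells, at −0.33 and −0.49, and their windows shared CCAAT and differed in the sterol motif. A match is a description of the letters in the window, not a bound site.

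Of the 5 SREBP regulators, 1 fell and 1 rose in sgSik3 cells, which is close to the 23.9% called in each direction over all genes tested. Insig1, the retention protein whose own gene is an SREBP target, had 1565 and 1700 normalised read counts in sgSik3 cells, against 2326 and 1882 in sgRosa26 cells (log2 fold change −0.36, SE 0.09, adjusted p = 0.0081). Insig2, its paralog, had 395 and 428 in sgSik3 cells, against 353 and 339 in sgRosa26 cells (0.25, SE 0.08, adjusted p = 0.031). The groups of both genes stood apart, in opposite directions. Srebf1 had 2539 and 2681 in sgSik3 cells, against 2863 and 2495 in sgRosa26 cells (−0.03, SE 0.06, adjusted p = 0.67), and Srebf2 had 5627 and 5900 in sgSik3 cells, against 6153 and 5664 in sgRosa26 cells (−0.04, SE 0.05, adjusted p = 0.55). The libraries of these factors overlapped between groups. Scap, the escort protein, had 1689 and 1691 in sgSik3 cells, against 1794 and 1839 in sgRosa26 cells (−0.10, SE 0.04, adjusted p = 0.061), lower in both sgSik3 libraries without passing the test. Scap was called with quantile normalisation (adjusted p = 0.044) and without sgRosa26 replicate 1 (0.045), and Srebf1 and Srebf2 were called lower without sgRosa26 replicate 2 (−0.13, adjusted p = 0.012, and −0.09, adjusted p = 0.038). Insig1 stood at −0.21 without sgRosa26 replicate 1 and missed the threshold without guide e1 (adjusted p = 0.077). Insig2 did so without sgRosa26 replicate 2 (adjusted p = 0.061), guide e1 (0.062) or guide e3 (0.22), and both did with DESeq2 on recovered reads (adjusted p = 0.066 and 0.19).

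In the fatty acid branch, 4 of the 8 tested members fell and 1 rose. Fasn had 13073 and 14075 normalised read counts in sgSik3 cells, against 19662 and 18389 in sgRosa26 cells (log2 fold change −0.49, SE 0.05, adjusted p = 3.5e-05), the lowest adjusted p of any member. Acaca, the acetyl-CoA carboxylase that makes malonyl-CoA, had 2730 and 2755 in sgSik3 cells, against 3511 and 3105 in sgRosa26 cells (−0.27, SE 0.05, adjusted p = 0.0033). Both stayed called whichever library was left out. Acly had 10658 and 10567 in sgSik3 cells, against 11769 and 11275 in sgRosa26 cells (−0.12, SE 0.03, adjusted p = 0.017). Elovl6, which lengthens palmitate, had 1665 and 1868 in sgSik3 cells, against 2397 and 1954 in sgRosa26 cells (−0.30, SE 0.09, adjusted p = 0.022). Acss2 ran the other way, with 95.4 and 104 in sgSik3 cells, against 65.8 and 53.9 in sgRosa26 cells (0.73, SE 0.17, adjusted p = 0.0069). The groups of all 5 genes stood apart. Models on the opposite strand share 3.9% (Gss), 3.3% (Acss2os) and 1.9% (Ggt7) of the exon length of Acss2, so reads there could belong to either gene. The desaturase genes did not pass the test and their groups overlapped. Scd2 had 11671 and 13527 in sgSik3 cells, against 17300 and 12487 in sgRosa26 cells (−0.23, adjusted p = 0.17), Fads1 stood at −0.08 and Fads2 at −0.21. Fads2 stood at 0.27 without sgRosa26 replicate 1 and at −0.70 without sgRosa26 replicate 2. Elovl6 stood at −0.15 without sgRosa26 replicate 1, and its call was lost without guide e1 (adjusted p = 0.17) and with DESeq2 (0.16). The call of Acly was lost without guide e1 (adjusted p = 0.079) or guide e3 (0.11), and that of Acss2 without guide e3 (0.065) and with DESeq2 (0.057).

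Of 39 other genes of these pathways tested in sgSik3 cells, 13 were called lower and 9 higher, against 23.9% in each direction over all genes tested. Of 8 other sterol and isoprenoid enzymes tested, 5 were lower and 1 higher. Msmo1, the sterol methyl oxidase that acts after Cyp51, stood at a log2 fold change of −0.33 (SE 0.05) and Coq2, of coenzyme Q synthesis, at −0.28 (SE 0.05), while Dhdds, of dolichol synthesis, rose by 0.28 (SE 0.04). Of 12 genes of cholesterol uptake, storage and efflux tested, 4 were lower and 3 higher. The lysosomal lipase gene Lipa had 1488 and 1367 in sgSik3 cells, against 2008 and 2304 in sgRosa26 cells (−0.59, SE 0.07, adjusted p = 0.00012). Scarb1, the receptor for high density lipoprotein, stood at −0.37 (SE 0.06), Npc2, which carries cholesterol out of lysosomes, at 0.36 (SE 0.03) and the sterol sensor gene Nr1h2 at 0.23 (SE 0.04). Of 19 other fatty acid and glycerolipid enzymes tested, 4 were lower and 5 higher. Dgat2, which completes triglycerides, had 1194 and 1089 in sgSik3 cells, against 452 and 489 in sgRosa26 cells (1.28, SE 0.07, adjusted p = 2.0e-06). Dgat1, which catalyses the same step, rose by 0.84 (SE 0.05), the acyl-CoA synthetase gene Acsl1 rose by 0.56 (SE 0.04), and its relative Acsl3 fell by 0.51 (SE 0.07). The genes named from these lists stayed called whichever library was left out.

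Granulocyte markers moved with the sgSik3 comparison. Of 19 tested, 18 were higher, against 23.9% of all genes tested, and none of the 21 in the table was at 0. Their summed level was 273077 and 257936 normalised read counts in sgSik3 cells, against 135020 and 144771 in sgRosa26 cells. Of 12 monocyte and macrophage markers tested, 5 were higher and 5 lower. The summed level of that list was also higher, at 163285 and 155944 in sgSik3 cells, against 100092 and 98953 in sgRosa26 cells. Of 8 leukemia identity markers, 6 were higher (Ptprc, Spi1, Kit, Myb, Meis1 and Cd33) and 1 lower (Flt3). The part of these markers in the fall of the synthesis genes was not tested.

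**Figure D4:**
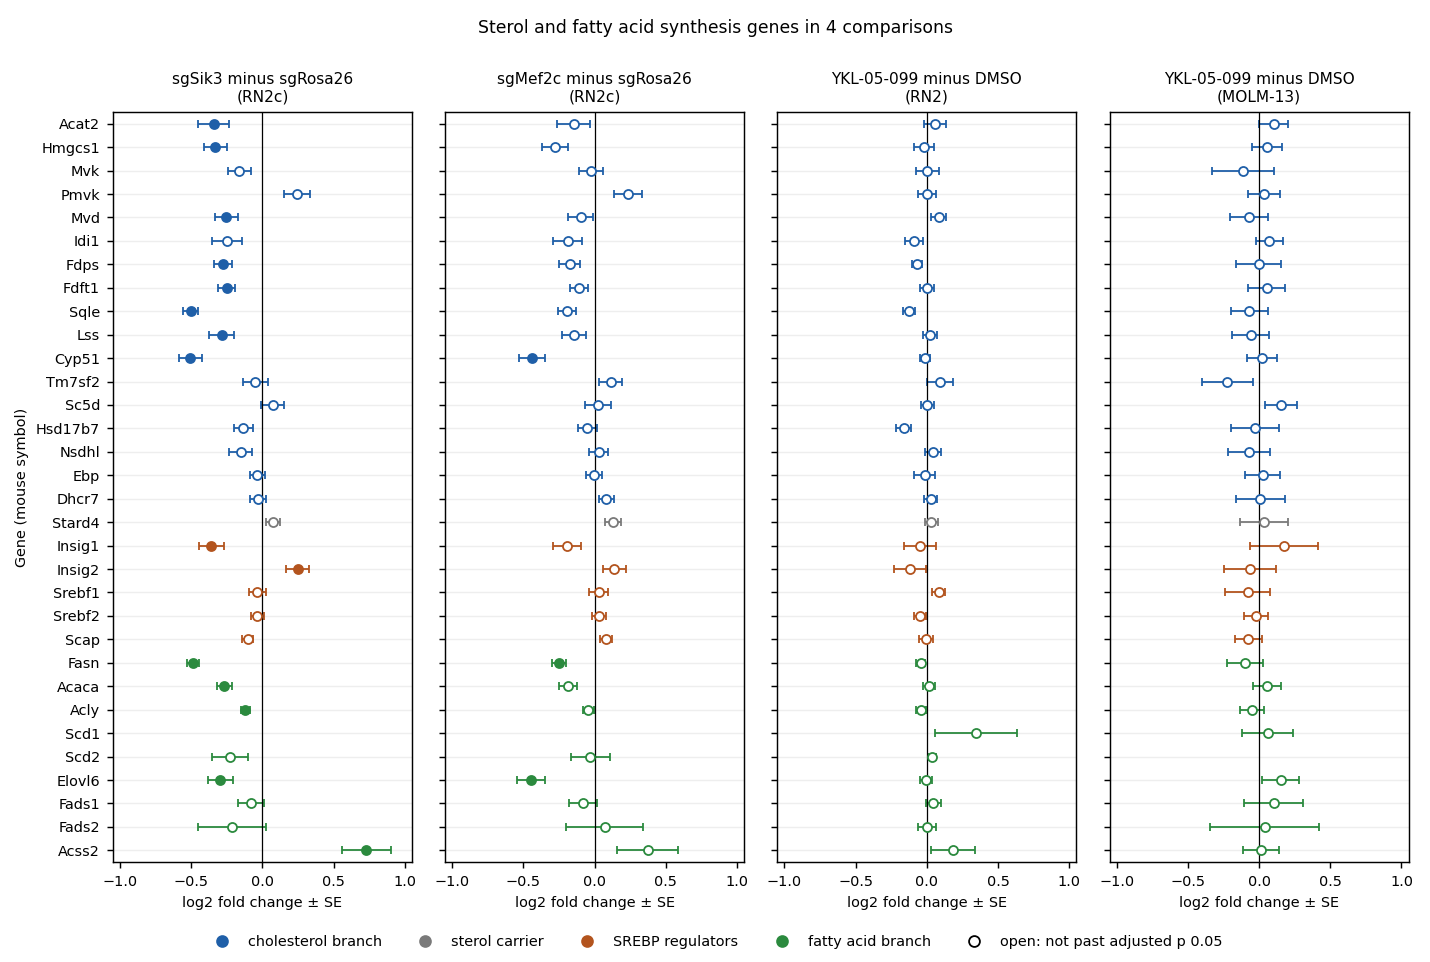
Log2 fold change ± SE of each member in the 4 tables, with filled points for members past the limma test; in the MOLM-13 panel, Cyp51 and Scd1 stand for CYP51A1 and SCD. Most enzymes of both branches lie below 0 in sgSik3 cells, 3 filled points remain in sgMef2c cells, and no point is filled for YKL-05-099.

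In sgMef2c cells Cyp51, Fasn and Elovl6 fell. Of 31 members tested, 3 were called lower and 0 higher (limma), against 15.1% lower and 16.3% higher over all 10956 genes tested, and 0 members were higher at an unadjusted p under 0.05, with edgeR or with DESeq2. With edgeR 3 members were lower and with DESeq2 4, where these tools called 31.3% and 20.6% of all genes in either direction. The groups stood apart for 10 members on the lower side and 6 on the higher side, against 35.0% and 35.5% of all genes tested. Cyp51 had 2212 and 2039 normalised read counts in sgMef2c cells, against 3169 and 2619 in sgRosa26 cells (log2 fold change −0.44, SE 0.09, adjusted p = 0.011). Fasn had 17060 and 16485 in sgMef2c cells, against 20668 and 19280 in sgRosa26 cells (−0.25, SE 0.05, adjusted p = 0.0082). Elovl6 had 1753 and 1587 in sgMef2c cells, against 2519 and 2048 in sgRosa26 cells (−0.45, SE 0.10, adjusted p = 0.014). The groups stood apart for each of the 3, and these genes were also called lower in sgSik3 cells against the same 2 sgRosa26 libraries. Cyp51 stayed called whichever library was left out, Fasn lost its call without sgRosa26 replicate 1 (adjusted p = 0.055) and Elovl6 without guide 2 (adjusted p = 0.056), with a value of −0.30 without sgRosa26 replicate 1. In a fit with no mean-variance trend none of the 3 passed (adjusted p = 0.081, 0.066 and 0.092).

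The members not called in sgMef2c cells ranged from −0.28 for Hmgcs1 to 0.37 for Acss2, which had 68.9 and 95.9 normalised read counts in sgMef2c cells, against 69.2 and 56.5 in sgRosa26 cells (adjusted p = 0.22). The median log2 fold change was −0.10 in the cholesterol branch, −0.06 in the fatty acid branch and 0.03 among the regulators. Sqle had 2340 and 2182 normalised read counts in sgMef2c cells, against 2733 and 2444 in sgRosa26 cells (−0.19, SE 0.06, adjusted p = 0.058), and Hmgcs1 had 2505 and 2355 in sgMef2c cells, against 3269 and 2653 in sgRosa26 cells (−0.28, SE 0.09, adjusted p = 0.058). Both were lower in each sgMef2c library and close to the threshold. Hmgcs1 was called with DESeq2 (adjusted p = 0.016), as the fourth of its calls, and with quantile normalisation (0.046), and Sqle without sgMef2c guide 1 (0.041). Insig1 had 2012 and 1830 in sgMef2c cells, against 2445 and 1973 in sgRosa26 cells (−0.19, SE 0.10, adjusted p = 0.18), with overlapping groups. The other regulators were at or above the control mean. Insig2 had 408 and 392 in sgMef2c cells, against 371 and 355 in sgRosa26 cells (0.14, adjusted p = 0.22), Scap had 2022 and 2003, against 1886 and 1928 (0.08, adjusted p = 0.21), Srebf1 had 2905 and 2824, against 3010 and 2616 (0.03, adjusted p = 0.77), and Srebf2 had 6334 and 6336, against 6468 and 5939 (0.03, adjusted p = 0.66). The count and the branch medians differed with the sgRosa26 library that was left out. Without sgRosa26 replicate 2, 12 members were called lower, and the medians were −0.19 in the cholesterol branch and −0.27 in the fatty acid branch. Without sgRosa26 replicate 1, 2 were called lower and 2 higher (Pmvk and Fads2), with medians of 0.02 and 0.03. Fads2 stood at 0.55 without sgRosa26 replicate 1 and at −0.41 without sgRosa26 replicate 2.

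Of the other pathway lists in sgMef2c cells, 4 of 8 sterol and isoprenoid enzymes were lower and 1 higher, 2 of 12 uptake, storage and efflux genes were lower and 3 higher, and 4 of 18 fatty acid and glycerolipid enzymes were lower and 7 higher. Together these are 10 lower and 11 higher of 38, against 15.1% and 16.3% over all genes tested. Dgat2 had 1348 and 1655 normalised read counts in sgMef2c cells, against 476 and 512 in sgRosa26 cells (log2 fold change 1.60, SE 0.10, adjusted p = 0.00029). Dgat1 rose by 0.66 (SE 0.09), Acsl1 by 0.51 (SE 0.06), the elongase gene Elovl5 by 0.39 (SE 0.04), Dhdds by 0.41 (SE 0.04) and Npc2 by 0.22 (SE 0.04). Of 19 granulocyte markers tested, 16 were higher and 1 lower, and none in the table was at 0. Their summed level was 282819 and 388556 normalised read counts in sgMef2c cells, against 141928 and 151783 in sgRosa26 cells. Of 12 monocyte and macrophage markers tested, 3 were higher and 6 lower. The summed level of that list was 116642 and 130221 in sgMef2c cells, against 105213 and 103745 in sgRosa26 cells. Of 8 leukemia identity markers, 4 were higher (Spi1, Myb, Meis1 and Cd33) and 1 lower (Flt3). The part of these markers in the result was not tested.

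**Figure D5:**
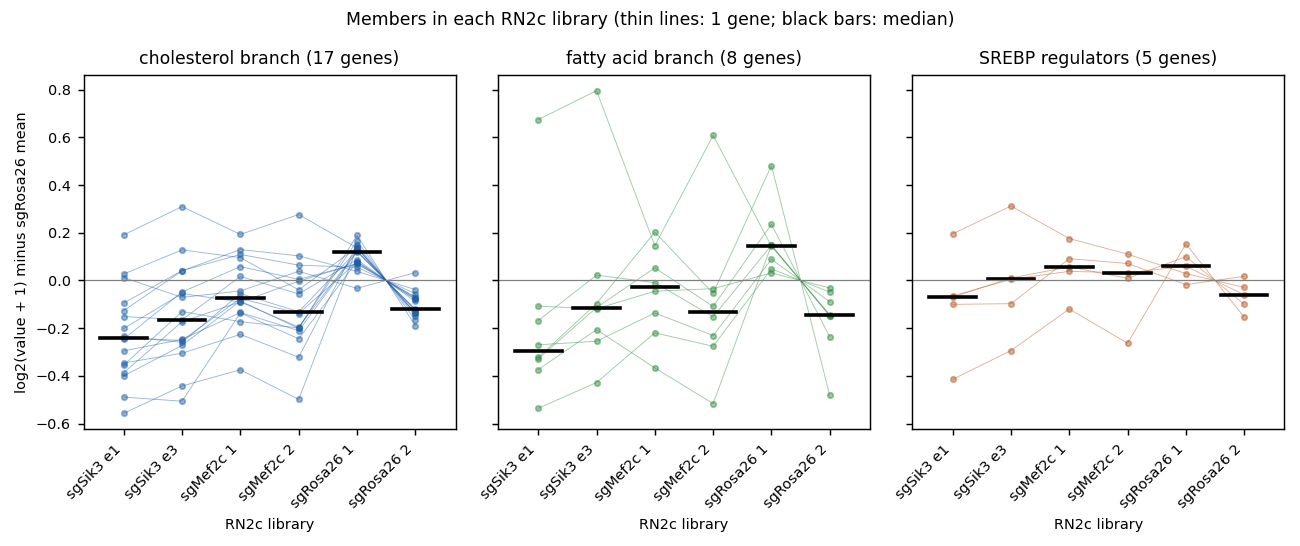
Log2(value + 1) of each member in the RN2c libraries minus its mean over the sgRosa26 libraries, with values scaled jointly over the 6 libraries, thin lines for genes and black bars for medians. The cholesterol and fatty acid medians are lowest with sgSik3 guide e1 and highest in sgRosa26 replicate 1, and the regulators lie near 0.

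Scaled together, the 6 RN2c libraries placed 17 of 31 members at their lowest level with sgSik3 guide e1, 6 with guide e3, 1 with sgMef2c guide 2 and 7 in sgRosa26 replicate 2. The highest level was in sgRosa26 replicate 1 for 23 of 31. Of the reads of a library, the members together made up 0.370% and 0.397% in sgSik3 libraries and 0.433% and 0.405% in sgMef2c libraries, against 0.4996% and 0.428% in sgRosa26 libraries. The sgSik3 libraries lay below the other 4.

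The direct test of the knockouts asked whether the members differed between sgMef2c and sgSik3 cells. The sgRosa26 controls had no weight in the difference but entered the scaling and the estimate of the spread. It was made with edgeR, on reads recovered from the 6 RN2c libraries. Of 31 members, 3 were higher in sgMef2c cells and 0 lower, against 3.7% higher and 5.74% lower of all 10954 genes tested, and 0 were lower at an unadjusted p under 0.05 or with DESeq2. DESeq2 called 2 members higher, Sqle and Fasn but not Scap (adjusted p = 0.14), and 5.87% of all genes in either direction. The libraries stood apart for 17 members higher and 2 lower in sgMef2c cells, against 31.3% and 26.6% of all genes tested. Sqle had 2287 and 2122 jointly normalised read counts in sgMef2c cells, against 1791 and 1770 in sgSik3 cells (log2 fold change 0.30, adjusted p = 0.015). Fasn had 16674 and 16035 in sgMef2c cells, against 13389 and 14431 in sgSik3 cells (0.23, adjusted p = 0.023). Scap had 1976 and 1948 in sgMef2c cells, against 1730 and 1734 in sgSik3 cells (0.17, adjusted p = 0.027). The groups stood apart for each. Cyp51 and Elovl6, called lower in both knockouts, did not pass the direct test (0.06, adjusted p = 0.71, and −0.16, adjusted p = 0.34), and their groups overlapped. The median difference was 0.11 in the cholesterol branch, 0.07 in the fatty acid branch and 0.06 among the regulators, against 0.00 over all genes. All 3 calls were lost without sgMef2c guide 1 (adjusted p = 0.073 for Sqle, 0.079 for Fasn and 0.096 for Scap), without sgSik3 guide e1 (0.15, 0.20 and 0.18) and without guide e3 (0.17, 0.096 and 0.19).

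YKL-05-099 was given for 2 hours to ask which transcripts respond early to kinase inhibition. In RN2 cells none of the 32 members passed the test in either direction, with 0 called by limma, edgeR or DESeq2 and 2 at an unadjusted p under 0.05 in limma. Over all 10732 genes tested, 0.317% were called by limma (0.28% lower and 0.0373% higher), 0.28% by edgeR and 0.336% by DESeq2, and 7.32% had an unadjusted p under 0.05. The genes at an unadjusted p under 0.05 were Sqle, with 3173 and 3105 normalised read counts under YKL-05-099, against 3442 and 3400 under DMSO (log2 fold change −0.12, SE 0.04, adjusted p = 0.48), and Hsd17b7, a keto reductase of the sterol ring, with 1679 and 1726, against 1853 and 1962 (−0.16, SE 0.05, adjusted p = 0.43). Their groups stood apart. With a block for replicate number, limma called both lower (adjusted p = 0.015 for Sqle and 0.0069 for Hsd17b7) and 499 of all 10732 genes in either direction. Fasn had 21177 and 21216 under YKL-05-099, against 21256 and 22387 under DMSO (−0.04, SE 0.03), and Hmgcs1 had 5806 and 5618, against 5283 and 6345 (−0.02, SE 0.07). Insig1 had 3835 and 4539 under YKL-05-099, against 3742 and 4966 under DMSO (−0.05, SE 0.11), a spread between libraries wider than the difference. Insig2 had 264 and 235, against 286 and 256 (−0.12, SE 0.11), and Scap had 1387 and 1380, against 1387 and 1390 (−0.01, SE 0.05). Srebf1 had 3566 and 3698 under YKL-05-099, against 3321 and 3544 under DMSO (0.08, SE 0.05), and Srebf2 had 6006 and 6472, against 6267 and 6628 (−0.05, SE 0.05). Srebf1 alone of the regulators was higher in both treated libraries. Over the members, groups stood apart for 7 on the lower side and 4 on the higher side, against 18.7% and 18.1% of all genes tested. Branch medians were 0.00 for cholesterol, 0.01 for fatty acids and −0.05 for the regulators. The SE of the members ranged from 0.03 to 0.29, with a median of 0.05. Without DMSO replicate 1, Insig1 was called lower (−0.25, adjusted p = 0.0098).

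In MOLM-13 cells none of the 31 members passed, with 0 called by limma, edgeR or DESeq2 and 0 at an unadjusted p under 0.05. Over all 11361 genes tested, 0.0% were called by limma and by edgeR, 0.0616% by DESeq2, and 1.27% had an unadjusted p under 0.05. FASN had 7379 and 9009 normalised read counts under YKL-05-099, against 8073 and 9422 under DMSO (log2 fold change −0.10, SE 0.13). SQLE had 2351 and 2794, against 2453 and 2950 (−0.07, SE 0.13), and HMGCS1 had 2301 and 2056, against 2013 and 2179 (0.05, SE 0.10). In each of the 3 the treated and untreated libraries overlapped. INSIG1 had 3751 and 5146 under YKL-05-099, against 3068 and 4942 under DMSO (0.17, SE 0.24), and INSIG2 had 231 and 221, against 277 and 201 (−0.06, SE 0.18). SREBF1 had 2846 and 3686 under YKL-05-099, against 3040 and 3859 under DMSO (−0.08, SE 0.16), SREBF2 had 5564 and 5786, against 5632 and 5881 (−0.02, SE 0.09), and SCAP had 1673 and 1691, against 1839 and 1712 (−0.08, SE 0.09). Only SCAP among the regulators had groups that did not overlap. Groups stood apart for 2 members on the lower side and 2 on the higher side, against 10.5% and 10.7% of all genes tested. The members ranged from −0.22 for TM7SF2 to 0.17 for INSIG1, and the branch medians were 0.01 for cholesterol, 0.05 for fatty acids and −0.06 for the regulators. The SE ranged from 0.08 to 0.38, with a median of 0.13. These fits had no term for replicate number, so the SE includes the spread between replicate numbers. With a block for replicate number, limma called INSIG1 higher (0.17, adjusted p = 0.0058) and 290 of all 11361 genes in either direction. FADS2 showed the widest spread, with 402 and 786 under YKL-05-099, against 391 and 766 under DMSO.

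None of the other pathway lists held a called gene under YKL-05-099 in either line, of 39 genes tested in RN2 and 40 in MOLM-13. Granulocyte markers also held none, of 18 tested in RN2 and 12 in MOLM-13. Of 11 monocyte and macrophage markers tested in RN2, 1 was called lower (Irf8) and 0 higher, against 0.28% of all genes called lower. Of 7 such markers tested in MOLM-13, 0 were called. Of the reads of a library, the members together made up 0.867% and 0.888% under YKL-05-099, against 0.855% and 0.899% under DMSO, in RN2, and 0.388% and 0.454% under YKL-05-099, against 0.381% and 0.457% under DMSO, in MOLM-13. In both lines the higher share was in replicate 2 of each group.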

How the data were processed

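The 14 libraries were polyA RNA prepared with the Illumina TruSeq kit, per the labels' protocols. The submitters' processing notes name HISAT2, featureCounts, DESeq2 and the builds mm10 and hg19, per the labels. Neither versions nor the strand setting were found in the sources used here. As deposited, the 4 tables (1 per comparison) hold a linear signal, which is the read count of a gene over a size factor per library. Tables were normalised separately, so tests were made within a table. The sgSik3 and sgMef2c tables hold the same sgRosa26 libraries (reads of 0 genes differed).

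Genes averaging 10 or more were tested on log2(value + 1) with limma 3.58.1 under R 4.3.3, two-sided and with a mean-variance trend. P-values were adjusted by the Benjamini-Hochberg method over all genes tested, with a threshold of 0.05. Fold changes on this scale understate the change of low genes. Dividing by the worth of 1 read gave whole reads, to within 1e-06, for 100% of values in each library. The direct test used edgeR 4.0.16 (quasi-likelihood, TMM factors) on the recovered reads of 6 libraries. The totals of 13961461 to 24275290 reads per library put the called members, other than Acss2, at over 300 reads each. The scripts were tested on simulated data.

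Alternatives were edgeR and DESeq2 1.42.0 on recovered reads, TMM scaling, quantile normalisation, pseudocounts of 0.5 and 8, filters of 0 and 50, no trend, a threshold of 0.01, the replicate block and leaving out each library. For the direct test they were DESeq2, upper-quartile factors, no filter, the threshold, the 4 knockout libraries alone and leaving out each library.

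All 32 members were named. Called members were given with each library's value, the others by range, except the regulators, Fasn, Hmgcs1 and Sqle, which were always given. Of other lists, up to 4 called genes of lowest p were named. Some results are not reported here. Promoters came from called members. The members, lists and rules were chosen with earlier results of these data known. Mitochondrial symbols and Erg28 matched no row and were not used here. Exon lengths came from GENCODE models on GRCm38.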

Additional observations from a re-analysis of the deposited data

How the results depend on the processing

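Under DESeq2, 0 members were called higher in sgSik3 cells (2 in limma). With no mean-variance trend, 3 were called lower in sgSik3 cells (13 with it) and 0 in sgMef2c cells (3 with it). At a threshold of 0.01, 8 were called lower and 1 higher in sgSik3 cells, 1 lower in sgMef2c cells, and 0 differed between the knockouts (3 at 0.05). Quantile normalisation moved the RN2 fatty acid median to 0.028, from 0.013. Other scalings, pseudocounts and filters left each count within 1.5 times and each branch median within the spread between libraries. The labels do not state whether replicate numbers shared by groups mark a pairing. The difference between replicates 1 and 2 correlated between the groups at 0.05 in the sgMef2c table, 0.22 in RN2 and 0.53 in MOLM-13. Whether this reflects a pairing was not tested. With the replicate block, 8 members were called lower in sgMef2c cells, 2 in RN2 (Sqle at −0.12, adjusted p = 0.015, and Hsd17b7 at −0.16, adjusted p = 0.0069) and 0 in MOLM-13, where INSIG1 was called higher (0.17, adjusted p = 0.0058). In the sgMef2c table the number marks a guide in sgMef2c cells, so the block joined each guide with the sgRosa26 replicate of that number. The sgSik3 guides carry other numbers than sgRosa26, so no block was fitted there.

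Leaving out 1 library at a time gave 5 to 22 members lower and 0 to 6 higher in sgSik3 cells, 2 to 12 lower and 0 to 2 higher in sgMef2c cells, 0 to 1 lower in RN2, and 0 to 3 higher in the direct test. The cholesterol median spanned −0.33 to −0.083 in sgSik3 cells, −0.19 to 0.023 in sgMef2c cells, −0.022 to 0.011 in RN2 and −0.15 to 0.11 in MOLM-13. The fatty acid median spanned −0.40 to −0.039 in sgSik3 cells, −0.27 to 0.027 in sgMef2c cells, 0.0042 to 0.061 in RN2 and −0.11 to 0.21 in MOLM-13. Fads2 spanned −0.70 to 0.27 in sgSik3 cells and −0.41 to 0.55 in sgMef2c cells. It changed sign in sgSik3 cells without sgRosa26 replicate 1 (0.27) and in sgMef2c cells without sgRosa26 replicate 2 (−0.41), and these control libraries differed by 0.96. With 2 libraries a group, leaving one out leaves a lone library that is assumed to vary like the others. The causes were not tested. Scd1 did not pass the filter in RN2c but did in the RN2 libraries, which were shallower.

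Counts over all genes moved by more than 1.5 times under some alternatives. In sgMef2c cells 3442 genes were called, against 2255 with DESeq2, 1628 with no trend, 1610 at a threshold of 0.01 and 1818 to 3140 without 1 library. In the direct test 1034 were called, against 606 with DESeq2, 276 at 0.01, 50 without guide e1 and 45 without guide e3. In RN2 34 were called, against 499 with the replicate block, 3 with no filter, 0 with no trend, 16 with quantile normalisation, 12 at 0.01 and 26 to 318 without 1 library. In MOLM-13 0 were called by limma, against 290 with the replicate block, 7 with DESeq2 and 14 to 20 without 1 library.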

Other observations

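Levels of the members in control libraries of RN2 and RN2c come from tables normalised separately, and the experiments also differ in Cas9, infection and time, which cannot be told apart. The members together made up 0.855% and 0.899% of the reads in RN2 DMSO libraries and 0.4996% and 0.428% in sgRosa26 libraries. Per kilobase of exon, Insig1 had 1408 normalised reads in RN2 DMSO cells and 680 in sgRosa26 cells, Hmgcs1 had 1266 and 614, Cyp51 had 1128 and 624, Scd2 had 5019 and 2726, and Fads2 had 730 and 340. Acaca (190 and 194), Acly (2010 and 2183) and Srebf2 (897 and 822) lay closer. Scd1 had 31.5 and 31 normalised read counts in RN2 DMSO libraries and 1.88 and 0 in sgRosa26 libraries.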
